A study of Mus musculus with 4 samples.

Results

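The 10 gut hormone and secretory granule genes described here were measured in a study of fasting and antibiotic treatment in the mouse small intestine. They are *Cck*, *Sct*, *Gip*, *Ghrl*, *Sst*, *Gcg*, *Pyy*, *Nts*, *Tac1* and *Chga*, and they were taken from the tables by symbol. The rule used no measured value, but the set was proposed with earlier results of these data known. All 10 were present in both deposited tables, 10 of 25522 genes in the one without and 10 of 26085 in the one with tetracycline, and all 10 carried an adjusted p in both. Crypts, the pits that hold the stem cells of the gut lining, came from the small intestine of C57BL/6J males at 9 weeks of age. They were either fed or fasted for 24 hours, and had either no tetracycline or 21 days of this antibiotic, which gave 4 groups with 1 labelled sample each. The design text names depletion of what it abbreviates as AKK as the purpose of the antibiotic. The labels name no transgene or altered allele. Shaking in EDTA freed the crypts, trypsin then broke them into cells, and the library kit did not keep the strand of the RNA.

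Enteroendocrine cells are scattered hormone-secreting cells of the gut epithelium that arise from crypt stem cells. Each secretes a few peptides, stored in dense granules and released when nutrients or other signals reach the cell. Their repertoire changes along the gut: cholecystokinin, secretin, GIP and ghrelin belong mainly to its upper part, while the proglucagon peptides, peptide YY and neurotensin rise toward the ileum and colon. Chromogranin A, the product of *Chga*, is a granule protein found in most of these cells.

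The deposited means of a table are averages of whole counts divided by a size factor, and whole counts could be recovered from them. They showed 2 fasted and 2 fed libraries in each table, 8 in all, where the labels list 1 sample per group. The libraries could not be tied to the labelled samples, and nothing in the labels says whether they came from separate mice, so p-values measure only the spread between these libraries, which may be technical. Values per library below are these recovered counts divided by the size factor (normalized counts), with library 1 of a pair the one with the larger size factor, which ranged over 1.17-fold without and 1.75-fold with tetracycline. They are given as single values, with no test of their own. Fold changes are log2 values of fasted over fed with their standard error (SE), copied from the authors' deposited tables. The columns do not state this direction. It was inferred from the word order in each table's name, and every direction below depends on it; under this reading all 10 genes of a list of fatty acid oxidation and ketogenesis lay above 0 in both tables. A gene was called where the authors' DESeq2 p-value, adjusted by Benjamini-Hochberg within the filtered set (18100 genes without and 17993 with tetracycline), was under 0.05.

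Positions are those of mm10 (GRCm38) in the GENCODE annotation of that build. *Cck* (ENSMUSG00000032532.8) occupies chr9:121489824-121495694 on the minus strand and *Chga* (ENSMUSG00000021194.7) chr12:102554969-102565028 on the plus strand. *Gip* (ENSMUSG00000014351.13) lies at chr11:96024545-96030831 and *Pyy* (ENSMUSG00000017311.16) at chr11:102106676-102107832. *Ghrl* (ENSMUSG00000064177.9) lies at chr6:113716119-113719880 and *Tac1* (ENSMUSG00000061762.13) at chr6:7554879-7565834. *Gcg* (ENSMUSG00000000394.16) lies at chr2:62474530-62483650 and *Sct* (ENSMUSG00000038580.14) at chr7:141278330-141279133. *Sst* (ENSMUSG00000004366.5) lies at chr16:23889573-23890958 and *Nts* (ENSMUSG00000019890.5) at chr10:102481756-102490486. Of these, *Ghrl* alone overlapped other annotated genes, sharing 169 exon bases with *Gm44033* and 3 with *Gm26982*, both on the opposite strand. Their means were 4.05 and 86.8 normalized counts without tetracycline against 1359 for *Ghrl*, and without strand their reads cannot be told apart in the shared bases.

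The letters TGACG or their reverse complement CGTCA, the core of the cyclic AMP response element, were searched on both strands in the 250 bases before each start in the RefSeq promoter table of GRCm38.p6. They occurred in 5 of the 10 genes (*Cck*, *Chga*, *Nts*, *Sst* and *Tac1*) and in 19.8% of 27025 genes. The E-box CANNTG, the letters read by basic helix-loop-helix factors, occurred in 10 of 10 genes and in 69.3% of all genes. The windows of *Cck*, the gene that passed the fasting test, and of *Chga*, the granule gene set beside it, are shown 5′ to 3′ with the core in capitals, at chr9:121495695-121495944 (minus strand) and chr12:102554691-102554940 (plus strand).
Cck: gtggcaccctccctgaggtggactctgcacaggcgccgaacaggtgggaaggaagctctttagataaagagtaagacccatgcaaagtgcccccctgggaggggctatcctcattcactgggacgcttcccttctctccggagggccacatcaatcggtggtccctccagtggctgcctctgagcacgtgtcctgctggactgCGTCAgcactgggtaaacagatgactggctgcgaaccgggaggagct
Chga: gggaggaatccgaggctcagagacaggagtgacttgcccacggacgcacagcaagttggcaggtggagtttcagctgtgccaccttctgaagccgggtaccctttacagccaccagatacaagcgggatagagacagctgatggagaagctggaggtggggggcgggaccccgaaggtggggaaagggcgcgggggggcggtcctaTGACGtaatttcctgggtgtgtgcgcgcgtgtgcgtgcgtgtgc
The core began 47 bases before the RefSeq start of *Cck* and 44 bases before that of *Chga*, and each window held 3 E-boxes. For *Chga* this RefSeq start lies upstream of the GENCODE start given above. A match of letters is a description and no evidence of binding.

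The fasting comparison without tetracycline asks how a day without food changes these transcripts in otherwise untreated mice. *Cck* was lower in the fasted mice and was the only one of the 10 that was called, at a log2 change of -1.02 ± 0.31 (SE; adjusted p = 0.0420, DESeq2, the authors' deposited table), which makes the fed level 2.02 times the fasted one. With p adjusted over all genes that have one, its adjusted p was 0.0592 and none of the 10 was called. The other 9 had adjusted p from 0.461 upward, and 9 of 10 changes in all lay below 0, where 50.5% of all tested genes lay above 0. Without fasted library 1 or without fed library 2, *Sst*, *Ghrl* and *Tac1* turned and 4 of 10 lay above 0. Among the tested genes of the first comparison, 2.27% of 18100 were called, 1.22% lower and 1.06% higher. In bulk RNA, fewer cells of a type and less RNA per cell cannot be told apart.

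*Cck* encodes cholecystokinin, released by I cells after fat and protein to empty the gallbladder and signal satiety. Its normalized counts were 1310 and 1497 in the fasted libraries against 2212 and 3463 in the fed ones without tetracycline. Both fasted libraries lay below both fed ones, as for *Pyy* and no other member, while none of the 10 had both above. Of 1999 sampled genes 27.3% lay below, 17.7% above and 45.0% one or the other. The fed pair of *Cck* itself stood far apart. Without fed library 2 the log2 ratio of the remaining means was -0.66, and without any of the other 3 libraries in turn it lay between -0.92 and -1.30; these ratios were not tested. Fed library 2 also held the highest level of 11 of 12 pancreatic acinar markers and of 9 of 10 lymphocyte and myeloid markers. The same held for 7 of 8 stromal, endothelial and erythrocyte markers, 10 of 14 further gut peptides and 6 of the 10 genes described. It held for 8 of 26 granule genes and 3 of 24 lineage transcription factors. The part of these other genes in the result was not tested. With tetracycline, the counts of *Cck* were 1426 and 1280 in the fasted against 2037 and 2054 in the fed libraries. Again both fasted libraries were below both fed ones, as for *Sct*, against 17.4% of the sampled genes, with a deposited log2 change of -0.60 ± 0.36 and a 95% interval from -1.30 to 0.11 (adjusted p = 1). Among 1998 sampled genes with means of 100 to 10000 in both tables, 9.26% had both fasted libraries below both fed ones in both tables.

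**Figure D1:**
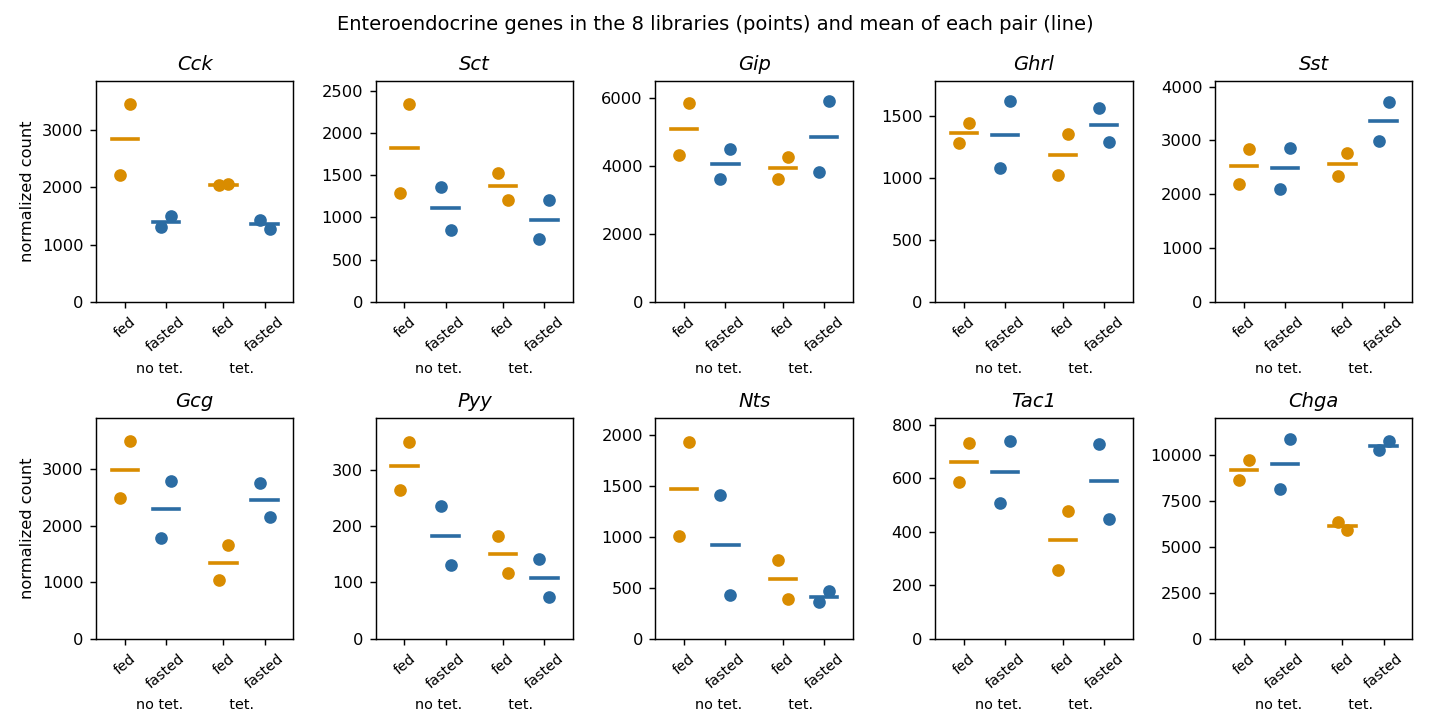
Normalized counts (linear axis from 0) of the 10 genes in the fed (orange) and fasted (blue) libraries without and with tetracycline; points are libraries and lines the mean of each pair. The fasted points of Cck lie below its fed points in both tables, and those of Chga with tetracycline, at 10260 and 10759, lie above the fed points at 6383 and 5906.

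*Cck* was also the only one of the 10 called when the changes of both tables were averaged with inverse-variance weights. This average was -0.84 ± 0.23 (95% interval -1.30 to -0.38; adjusted p = 0.0116, Wald test on the deposited DESeq2 values over 17571 genes), a test added after the data had been seen, by which 4.48% of genes were called, 2.52% lower. *Sct* and *Pyy* had averages of -0.62 ± 0.28 (adjusted p = 0.240) and -0.65 ± 0.33 (adjusted p = 0.331). Those 2 and *Nts* were the other genes with a change below 0 in both tables.

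*Sct* encodes secretin, the S-cell hormone that drives bicarbonate secretion by the pancreas. Without tetracycline its counts were 1358 and 852.8 fasted against 1293 and 2340 fed, a deposited log2 change of -0.72 ± 0.36 (unadjusted p = 0.0496, adjusted p = 0.461). The groups overlapped, because fasted library 1 exceeded fed library 1. Leaving out 1 library gave untested log2 ratios from -1.09, without fasted library 1, to -0.23, without fed library 2. With tetracycline the counts were 745.5 and 1204 fasted against 1528 and 1207 fed. Both fasted libraries lay below both fed ones, but library 2 of each nearly touched, and the change was -0.49 ± 0.44 (adjusted p = 1). It ranged from -0.88 without fasted library 2 to -0.18 without fasted library 1.

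*Gip*, the incretin of K cells that raises insulin release after sugar and fat, had the largest counts of the 9 hormones. They were 3616 and 4495 fasted against 4311 and 5835 fed without tetracycline, and 3810 and 5898 against 3601 and 4266 with it. The groups overlapped in both tables, and the log2 changes of -0.32 ± 0.28 and 0.30 ± 0.42 had 95% intervals that reached from -0.88 to 0.23 and from -0.52 to 1.12. With 1 library left out the ratio lay between -0.52 and -0.09 without tetracycline, and between -0.05 (without fasted library 2) and 0.58 with it.

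*Ghrl* encodes ghrelin, the hunger hormone whose main source is the stomach. Its counts were 1082 and 1624 fasted against 1284 and 1446 fed without tetracycline, with a log2 change of -0.01 ± 0.30. With tetracycline they were 1567 and 1291 against 1028 and 1354, with a change of 0.26 ± 0.40. The fed range lay inside the fasted range without tetracycline, and the 95% intervals, from -0.61 to 0.58 and from -0.52 to 1.04, include no fall as large as the estimate for *Cck* without tetracycline.

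*Sst* encodes somatostatin, the D-cell peptide that restrains the release of the other hormones. Without tetracycline its fasted counts of 2100 and 2856 nearly matched the fed counts of 2190 and 2848, a log2 change of -0.02 ± 0.29. With tetracycline both fasted libraries, at 2991 and 3717, exceeded both fed ones, at 2340 and 2772, but the change of 0.39 ± 0.38 did not pass (adjusted p = 1). *Sst*, *Gcg* and *Chga* were the 3 members with this order, against 15.1% of the sampled genes, and 32.5% did not overlap in one way or the other.

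The 3 genes of the lower gut are *Gcg*, *Pyy* and *Nts*. *Gcg* encodes proglucagon, from which L cells cut GLP-1 and GLP-2. Without tetracycline its counts were 1787 and 2794 fasted against 2492 and 3503 fed (log2 change -0.39 ± 0.32, adjusted p = 0.775). With tetracycline they were 2756 and 2156 fasted against 1034 and 1651 fed, with both fasted libraries above both fed ones. That change of 0.87 ± 0.44 had an unadjusted p of 0.0457 and an adjusted p of 0.926, and so was not called. Leaving out 1 library gave ratios from -0.75 (without fasted library 2) to -0.10 (without fasted library 1) in the first table, and from 0.57 (without fed library 1) to 1.25 (without fed library 2) in the second.

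*Pyy*, which encodes the L-cell peptide that slows gut transit and appetite, had the lowest counts of the 10. They were 234.8 and 131.2 fasted against 264.0 and 349.6 fed without tetracycline, all fasted values lying below the fed ones (log2 change -0.74 ± 0.40, adjusted p = 0.501). The ratio was -1.23 without fasted library 1 and -0.39 without fasted library 2. With tetracycline the counts of 142.3 and 74.29 fasted overlapped those of 182.7 and 116.5 fed, with a change of -0.46 ± 0.59 that ranged from -1.01 without fasted library 1 to -0.07 without fasted library 2.

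*Nts*, which encodes neurotensin of N cells, released after fat, had the widest gap of the 10 between the libraries of a pair in 3 of the 4 pairs, the exception being the fasted pair with tetracycline. Without tetracycline the fasted libraries had 1414 and 423.7 counts and the fed ones 1012 and 1931. The 3.34-fold gap between the 2 fasted libraries was wider than that of 99.0% of 1999 sampled genes, for which the median gap was 1.22-fold. The change of -0.68 ± 0.49 (adjusted p = 0.707) would be -1.80 without fasted library 1 and -0.06 without fasted library 2. With tetracycline the counts were 357.9 and 465.0 fasted against 770.2 and 393.7 fed (-0.50 ± 0.50), and the ratio turned to 0.06 without fed library 1.

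*Tac1* encodes the precursor of substance P, made by many enterochromaffin cells and by gut neurons. Its counts were 509.1 and 741.0 fasted against 586.5 and 731.4 fed without tetracycline, and 729.8 and 447.1 against 258.3 and 477.8 with it. The groups overlapped in both tables, with changes of -0.08 ± 0.32 and 0.68 ± 0.52. The second ranged from 0.28 without fasted library 1 to 1.19 without fed library 2.

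*Chga* had the highest counts of the 10. Without tetracycline they were 8132 and 10902 fasted against 8671 and 9755 fed, a log2 change of 0.05 ± 0.27. With tetracycline both fasted libraries, at 10260 and 10759, exceeded both fed ones, at 6383 and 5906. This change of 0.77 ± 0.35 had an unadjusted p of 0.0273 and an adjusted p of 0.809, and with 1 library left out the ratio stayed between 0.72 and 0.83. No member was called with tetracycline by DESeq2 in the authors' deposited table; 2 of 10, *Chga* and *Gcg*, had an unadjusted p under 0.05, against 5.34% of 17993 tested genes, of which 0.600% were called.

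**Figure D2:**
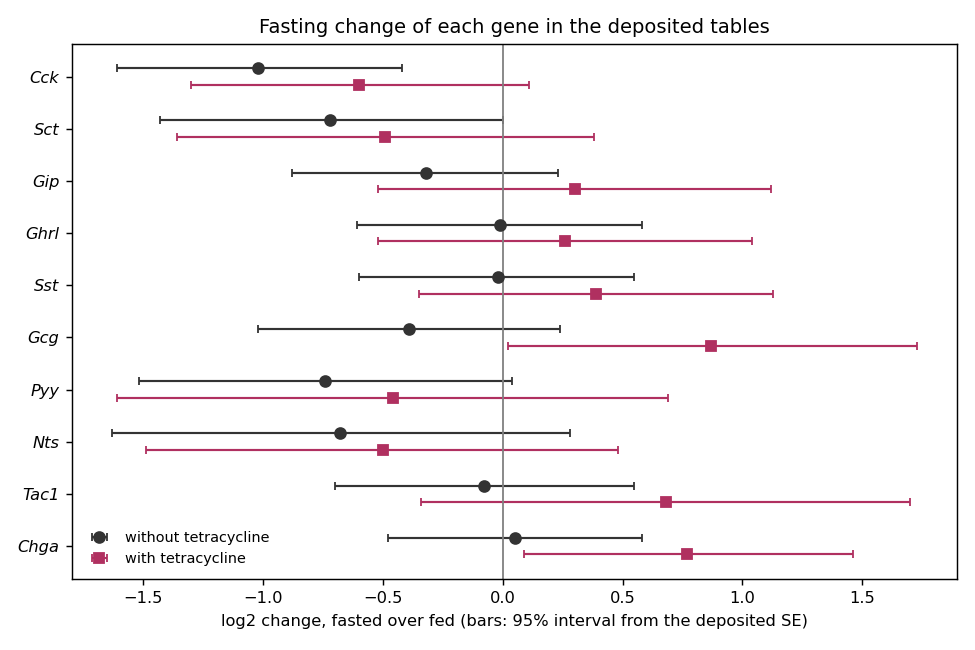
Deposited log2 change of fasted over fed for each gene without (black circles) and with tetracycline (red squares); bars are 95% intervals from the deposited SE and the line marks no change. The interval of Cck without tetracycline, from -1.61 to -0.42, clears 0 by the widest margin, and each red square lies to the right of its black circle.

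Whether tetracycline altered the fasting response was tested as the change with minus the change without tetracycline. None of the 10 differences was called, with adjusted p of 1 throughout, and 0.0228% of 17571 genes were called by this Wald test. *Gcg* had a difference of 1.26 ± 0.54, with a 95% interval from 0.20 to 2.32. Its unadjusted p of 0.0200, from the Wald test on the deposited DESeq2 values, was the only one under 0.05 among the 10, and 1.05% of all genes tested had one. All 10 differences lay above 0, from 0.18 for *Nts* to 1.26 for *Gcg*, with a median of 0.42 against 3.34e-04 for all genes tested, of which 50.0% lay above 0. Within a library the genes share 1 size factor. *Chga* stood at 0.73 ± 0.44 (-0.14 to 1.60) and *Cck* at 0.42 ± 0.47 (-0.51 to 1.35), so a response of *Cck* that tetracycline left as it was, or weakened by its whole size, would both lie inside the interval.

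Because every gene is read against the same size factor, the 9 hormones were also expressed as shares of their own summed count within each library, which no scaling can move. *Cck* made up 9.77% and 9.71% of the sum in the fasted libraries against 14.1% and 15.4% in the fed ones without tetracycline. With tetracycline it made up 9.82% and 7.74% fasted against 15.9% and 14.4% fed. The groups stood apart in both tables. Measured against the same sum, 2.50% of 1998 sampled genes had both fasted libraries below both fed ones in both tables. *Cck* is part of that sum, and the sum itself differed between fed and fasted libraries. This percentage therefore does not measure how rare the order of *Cck* is.

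*Sst* took the opposite course, with shares of 15.7% and 18.5% fasted against 14.0% and 12.7% fed without tetracycline. With it, its shares were 20.6% and 22.5% fasted against 18.3% and 19.4% fed. Shares add to a fixed total, so a lower share of *Cck* raises the others. *Gip* kept the largest share in each of the 8 libraries, between 26.0% and 35.7%, and *Pyy* the smallest, between 0.449% and 1.75%. The share of *Nts* ranged from 2.46% to 10.5%.

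The sum of the 9 hormones over *Chga* was lower in the fasted libraries in both tables. It was 1.65 and 1.41 fasted against 1.80 and 2.30 fed without tetracycline, and 1.42 and 1.54 against 2.0 and 2.42 with it. The sum itself was 13410 and 15415 fasted against 15645 and 22447 fed without tetracycline, and 14524 and 16532 against 12780 and 14291 with it. The fasted libraries thus lay below the fed ones in the first table and above them in the second. The ratio of *Cck* to *Chga* was 0.161 and 0.137 fasted against 0.255 and 0.355 fed without tetracycline, and 0.139 and 0.119 against 0.319 and 0.348 with it. Against *Chga*, 22.4% of the sampled genes had both fasted libraries below both fed ones in both tables, a far larger share than against the hormone sum.

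**Figure D3:**
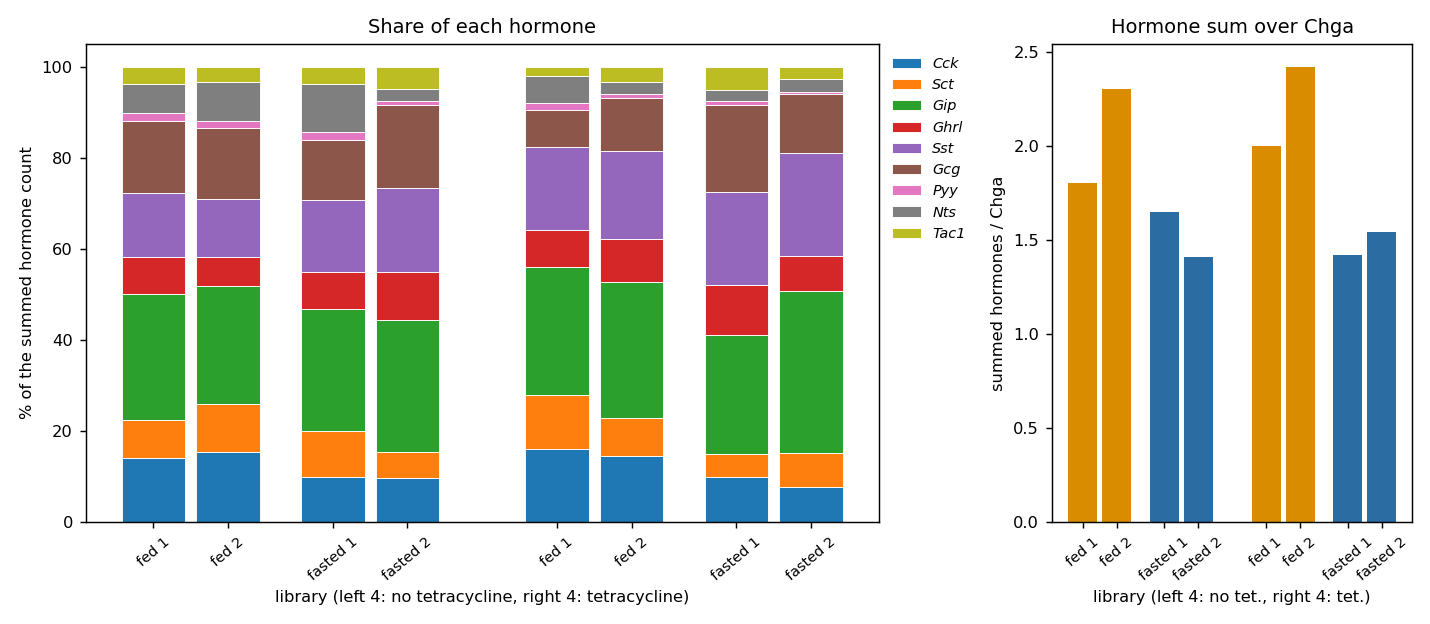
Left, share of each of the 9 hormones in their summed normalized count (%), for each library; right, the summed hormones divided by Chga (linear axis from 0; fed orange, fasted blue). The lowest segment, Cck, is between 14.1% and 15.9% in the fed and between 7.74% and 9.82% in the fasted libraries.

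Levels between genes were compared as normalized counts per kilobase of the longest coding transcript. *Gip* ranked first in both tables, with a mean of 7001 per kilobase without and 6739 with tetracycline. *Chga* followed at 4973 and 4422 and *Sst* at 3465 and 4099. *Sct*, *Cck* and *Gcg* came next, at 2736, 2654 and 2430 without tetracycline, and their ranges over libraries overlapped. *Ghrl* followed at 1525 and *Nts* at 957.6, and *Tac1* and *Pyy* ended the order at 521.9 and 441.3. The ranges of neighbours in this order stayed apart only for *Chga* over *Sst* without tetracycline, and for *Sst* over *Sct* and *Ghrl* over *Nts* with it. With the length of all exons merged, *Sst* moved above *Chga* and *Tac1* below *Pyy* in both tables, and *Gcg* above *Cck* without tetracycline.

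**Figure D4:**
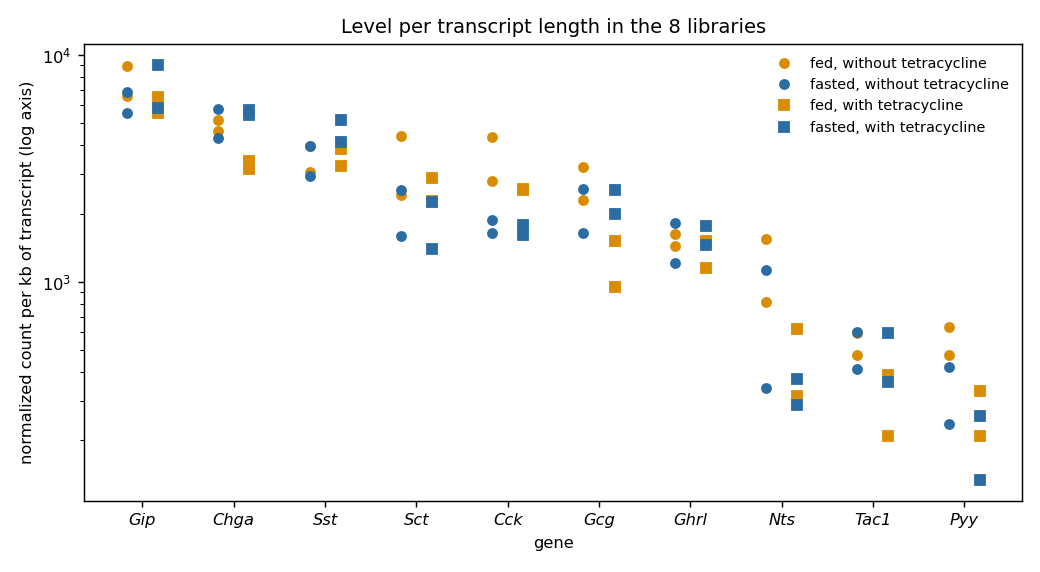
Normalized count per kilobase of the longest coding transcript (log axis) for the 10 genes in every library, fed orange and fasted blue, circles without and squares with tetracycline. The genes run from Gip, between 5523 and 9046, to Pyy, between 133.9 and 629.9.

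The level with against without tetracycline crosses 2 separately scaled tables, so it is a description with no test. In fed mice all 10 log2 ratios lay below 0 after centring on the median of 21925 genes, and for 7 of 10 both libraries with tetracycline were below both without, as for 16.1% of the sampled genes; for none were both above, as for 19.7%. The ratio was -1.40 for *Nts*, -1.22 for *Gcg*, -1.09 for *Pyy*, -0.90 for *Tac1*, -0.64 for *Chga* and -0.53 for *Cck*. *Sst* stood at -0.04 and turned to 0.30 when centred on the granule genes, and *Ghrl* turned from -0.26 to 0.08. In fasted mice 5 of 10 lay below 0 and 9 of 10 overlapped, and none had both libraries with tetracycline below both without, as had 4.45% of the sampled genes; *Nts* was again lowest at -1.22, with means of 918.9 without and 411.1 with tetracycline. That value rests on fasted library 1 without tetracycline, at 1414, since fasted library 2, at 423.7, lay between the 357.9 and 465.0 of the libraries with tetracycline. *Sst* alone had both fasted libraries with tetracycline above both without, as had 13.9% of the sampled genes.

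The surrounding machinery of enteroendocrine cells was examined in 6 gene lists, which hold 123 genes beside the 10. No gene of these lists was called by DESeq2 in either of the authors' deposited tables. Of 93 tested without tetracycline 7 had an unadjusted p under 0.05, against 10.8% of all genes, and of 92 tested with it 9 did, against 5.34%. The smallest adjusted p was 0.134, for *Adra2a* without, and 0.0605, for *Pdx1* with tetracycline.

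The genes of secretory granules and peptide processing, 26 of 26 tested, had a median change of 0.06 without and 0.19 with tetracycline, against 0.01 and -0.02 for all genes tested. *Pcsk1*, the convertase that cuts prohormones in granules, had counts of 1641 and 1522 fasted against 1166 and 1087 fed without tetracycline (0.49 ± 0.26, adjusted p = 0.497). Both fasted libraries exceeded both fed ones, opposite to *Cck*. *Resp18*, another granule gene, stood at -0.71 ± 0.43 (adjusted p = 0.598) without and 0.52 ± 0.53 with tetracycline. *Chgb*, the sister granin of *Chga*, stood at -0.18 ± 0.29 and 0.25 ± 0.38.

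In the serotonin list of 12 genes, *Tph1*, the enzyme that makes enterochromaffin serotonin, had counts of 1459 and 1668 fasted against 1537 and 1745 fed without tetracycline. *Gch1*, which supplies the cofactor of that enzyme, had 1116 and 675.4 fasted against 1288 and 2210 fed, a change of -0.96 ± 0.36 (adjusted p = 0.175), and -0.88 ± 0.38 (adjusted p = 0.761) with tetracycline. *Adra2a*, an adrenergic receptor of enterochromaffin cells, had 1846 and 2286 fasted against 1370 and 906.2 fed (0.86 ± 0.31, adjusted p = 0.134). The list's median change was -0.18 without and 0.12 with tetracycline.

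Among 24 transcription factors of the lineage, the median change was 0.02 without and 0.49 with tetracycline, where 21 of 24 lay above 0, against 48.2% of all tested genes. With tetracycline fasted library 1 alone was highest for 19 of the 24, and the summed levels, 10399 and 6885 fasted against 7423 and 10154 fed, overlapped. *Neurog3*, the factor that commits a crypt cell to this fate, had 230.2 and 336.6 counts fasted against 382.1 and 241.1 fed without tetracycline (-0.14 ± 0.38). *Neurod1*, which acts just after it, had 376.1 and 396.8 fasted against 244.1 and 291.3 fed (0.53 ± 0.32, adjusted p = 0.590). *Pdx1*, which is also a general duodenal factor, lay on the other side: 659.1 and 968.6 fasted against 2054 and 2419 fed with tetracycline (-1.46 ± 0.41, adjusted p = 0.0605), and -0.70 ± 0.32 (adjusted p = 0.350) without.

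Of the nutrient sensing receptors, 14 of 19 were tested in each table, with medians of 0.13 and 0.31. *Ffar3*, a receptor for short-chain fatty acids, had 212.8 and 112.9 counts fasted against 74.43 and 111.5 fed without tetracycline (0.81 ± 0.47, adjusted p = 0.568). *Slc5a1*, the glucose transporter SGLT1, which absorptive cells also carry, stood at 0.90 ± 0.38 (adjusted p = 0.290) and 1.01 ± 0.77. Of the hormone receptors and peptidases 11 of 25 were tested, with medians of 0.28 and 0.78. *Dpp4*, the peptidase that inactivates GLP-1 and GIP, stood at 0.95 ± 0.43 (adjusted p = 0.349) and 1.04 ± 0.65, and the somatostatin receptor *Sstr3* at 1.45 ± 0.67 (adjusted p = 0.367) and 1.71 ± 0.83.

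Of 19 further gut peptides 9 were tested in each table, with medians of -0.74 and -0.27. *Guca2a*, the guanylin gene that many epithelial cells use, had 15134 and 9102 counts fasted against 8760 and 15464 fed without tetracycline, which overlapped (0.00 ± 0.36). With tetracycline it had 9336 and 17366 fasted against 4871 and 6178 fed (1.27 ± 0.46, adjusted p = 0.394). *Guca2b*, the uroguanylin gene, stood at 0.84 ± 0.41 (adjusted p = 0.406) and 1.67 ± 0.77 (adjusted p = 0.820). Gastrin, *Gast*, was at 0 in both fasted libraries and at 18.1 and 5.39 in the fed ones with tetracycline, where several gastric markers were also higher in the fed libraries.

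**Figure D5:**
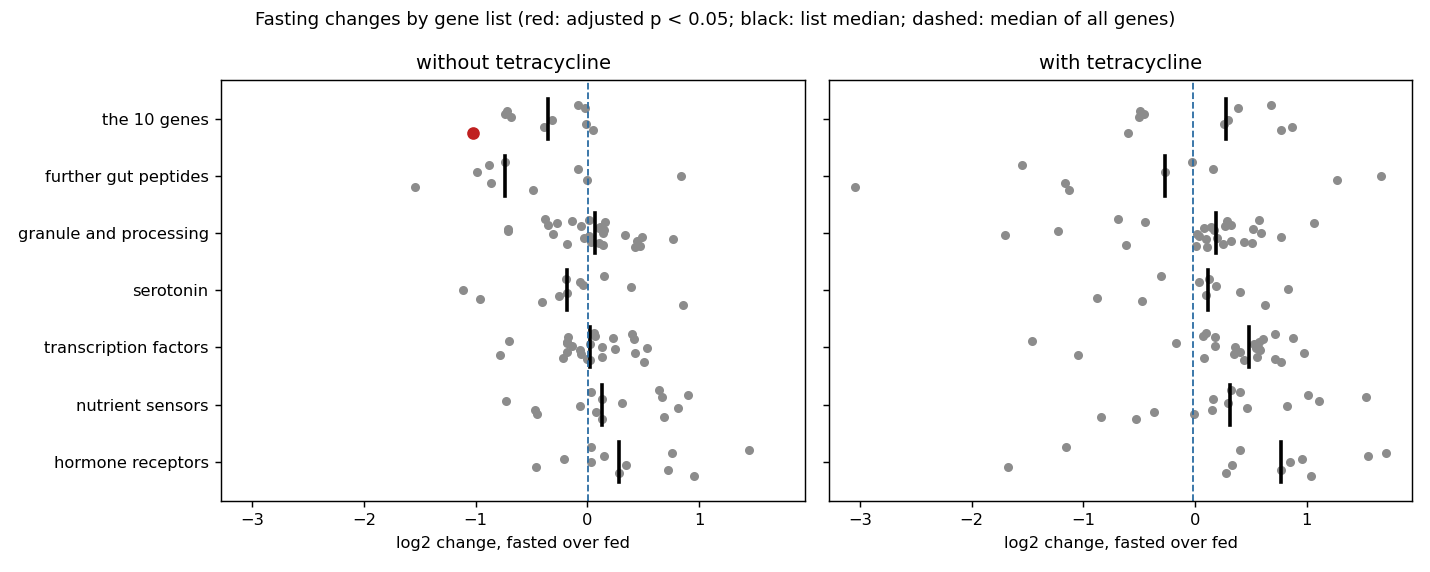
Deposited log2 change of fasted over fed for every tested gene of the 10 and of 6 endocrine lists, without (left) and with tetracycline (right); black bars are list medians and the dashed line the median of all genes. Cck without tetracycline, at -1.02, is the only called gene (red).

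Markers of other cells and of gut position moved with the groups, and their part in the results was not tested. Among position markers, *Slc40a1*, the duodenal iron exporter, was called lower in fasted mice in both tables (-1.28 ± 0.34 and -1.91 ± 0.49, adjusted p = 0.0113 and 0.0201). *Fabp6*, the ileal bile acid carrier, had 583.4 and 330.2 counts fasted against 13402 and 18584 fed without tetracycline. Its change was called there (-5.13 ± 0.34) and stood at -2.21 ± 0.75 (adjusted p = 0.268) with tetracycline. Of 10 proximal markers, 9 tested, 1 was called higher and 1 lower without tetracycline, and 0 and 1 with it. The proximal marker called higher was *Fabp1*. Of 12 distal markers, 9 and 10 tested, 3 were called lower without and 1 in each direction with tetracycline. The distal marker called higher was *Best2*. The median change of the distal list lay below 0 without and above 0 with tetracycline, so these markers did not all move as *Slc40a1* and *Fabp6* did.

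Of 12 gastric markers, 9 were tested in each table. Their summed level with tetracycline was 701.9 and 272.4 in the fasted against 3072 and 9536 in the fed libraries, and 1 of them, *Muc5ac*, was called lower (-6.05 ± 1.10). Without tetracycline that sum was 228.4 and 1215 fasted against 549.8 and 1194 fed. All 10 lymphocyte and myeloid markers were tested, 4 were called lower without and 0 with tetracycline, and all 10 lay below 0 in both tables, with medians of -0.98 and -1.62. Their sum was 5858 and 10965 fasted against 13021 and 17364 fed without tetracycline, and reached 50857 in fed library 1 with tetracycline against 3171 to 17087 in the other 3.

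Of the markers of enteric neurons, *Elavl3* lay between 0 and 7.34, *Elavl4* between 3.97 and 6.45 and *Stmn2* between 1.38 and 6.45 normalized counts in the 8 libraries. Of 18 neuron and glia markers 6 and 7 were tested and none was called, and the sum lay between 329.0 and 876.0. The islet markers *Ins1* and *Ins2*, insulin genes of the pancreas, did not exceed 6.47. Of 8 islet markers 2 were tested in each table and none was called: *Iapp*, the amylin gene, lay between 28.44 and 80.37 counts (-0.99 ± 0.63 and -0.27 ± 0.68), and *Slc2a2*, the glucose transporter GLUT2 that absorptive cells also carry, had a mean of 17823 without tetracycline (0.54 ± 0.38) and 15513 with it (0.25 ± 0.79). Of 13 acinar markers none was called, but 12 lay below 0 without tetracycline, with a median of -1.56 over the list. An unadjusted p under 0.05 was reached by 5 of the 13, among them *Clps*, the one above 0 (0.66 ± 0.26). With tetracycline 7 lay below 0, with a median of -0.27, and fed library 2 was again highest for 8 of 12. Their sum was 5388 and 6645 fasted against 3856 and 5758 fed without tetracycline, most of it *Clps*, which encodes colipase. *Cpb1* reached 75.35 in fed library 2 without and 61.48 in fed library 2 with tetracycline against 27.5 or less elsewhere. Of 10 stromal, endothelial and erythrocyte markers, 9 tested, 4 were called lower without and 0 with tetracycline, and 9 and 8 lay below 0. All 16 crypt and epithelium markers were tested, and 8 lay above 0 without and 10 with tetracycline. Of these, 1 was called higher and 0 lower without tetracycline, and 0 were called with it. The called gene was *Defa24* (1.15 ± 0.28, DESeq2 adjusted p = 0.00327). *Dclk1* stood at 0.81 ± 0.26 (DESeq2 adjusted p = 0.0673) and 0.28 ± 0.42. *Epcam*, from the same list, had means of 83703 and 68783 with changes of -0.04 ± 0.27 and 0.31 ± 0.42.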

How the data were processed

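RNA was sequenced from small-intestinal crypts in 4 groups. The 2 deposited tables hold the authors' own fasting comparisons, 1 without and 1 with tetracycline. Per the submitters' processing notes, Salmon, DESeq2 and build mm10 were used, with no version given; the annotation release is not given in the sources used here. Per the file headers, the authors' mean is a signal, counts divided by size factors and averaged; the authors' changes and standard errors are log2 values; the authors' statistic is a score, their ratio; and the authors' p-values are given raw and adjusted. Summed over genes, the deposited means came to 65863261 (without) and 65327199 (with tetracycline) normalized counts. There are 0 unused per-sample columns.

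Whole counts were recovered as the single set of 4 whole numbers that matches both the deposited mean and, under a negative binomial model with the deposited SE, the deposited change. For means under 100, or with no counts on a side, a single set that matched the mean was accepted without the final check against the change. Recovery worked for 99.95% of 2000 sampled genes with means of 100 to 10000 in each table, and for all 10 genes described. It was tried on means up to 20000. No count model was run on them. The design had assumed values per library; the deposited changes took their place. The changes of both tables were compared with a Wald test, checked on simulated data. Those data drew their errors from the deposited SE, so the check cannot show whether these SE hold for the libraries. Identifiers matched GENCODE M21 by gene without the version number. Genes named beside the 10 are, from each list, those called in either table (at most the 4 with the largest change) or, where fewer than 2 were, those with the smallest adjusted p, with a few defining genes added after their values were seen: *Chgb*, *Tph1*, *Neurog3*, *Gast* and *Epcam*. The 10 genes and all lists were chosen with earlier results of these data known. Values were computed with Python 3.11.15, pandas 2.3.3 and scipy 1.17.1.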

Additional observations from a re-analysis of the deposited data

How the results depend on the processing

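*Cck* was the only call among the 10 genes, and it depended on the threshold. At an adjusted p under 0.01, 0 were called, and 0 with the p-values adjusted over all genes with a p, where *Cck* had 0.0592. It was called with a mean of at least 5 (adjusted p = 0.0432) and when centred on the median of all genes (0.0394) or of the granule list (0.0227). No member was called with tetracycline, or for the difference, under any alternative run; with the statistic divided by its robust SD the smallest adjusted p of a difference was 0.270. The count of genes higher in fasted mice without tetracycline was 1 as deposited, 0 when centred on the granule list and 0 to 4 with each library left out in turn; *Sst*, *Ghrl*, *Tac1* and *Chga* were the genes that changed side. With tetracycline it was 6, and 5 to 7. The median level of the 10 with against without tetracycline in fed mice was -0.59, and -0.25 when centred on the granule list. At an adjusted p under 0.1, 1 gene of the endocrine lists, *Pdx1*, was called with tetracycline. No paired analysis was possible because the labels give 1 sample per group and no shared replicate numbers. The libraries number 2 per side, which limits the precision of every change, and 95% intervals cover the spread as the authors' model estimates it.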
